A study of Mus musculus with 139 samples.

Results

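The 8 genes described here mark mucous cells and their secretions, and were followed in mouse lung after carbon nanotube or asbestos exposure: Clca1, Muc5b, Muc5ac, Agr2, Spdef, Fcgbp, Slc26a4 and Mlph. They were chosen by symbol from the features of the array that are paired with exactly 1 gene, keeping the feature with the highest mean for each gene, and all 8 were found among 22180 genes measured in this way. Each of the 8 is measured by 1 feature. Male mice of the strain written C57BL/J6, 7 weeks old when obtained, received a suspension into the pharynx (pharyngeal aspiration). The groups were the vehicle alone (DM, a buffer with glucose, serum albumin and a phospholipid), nanotubes of the multi-walled kind (MWCNT) in amounts of 1, 10, 40 and 80 µg, and the amphibole asbestos crocidolite in an amount of 120 µg. RNA came from the lung at 1, 6 and 12 months, so there are 18 groups. A group held 8 mice, except 6 at 1 µg and 12 months, 5 for crocidolite at 1 month and 7 for crocidolite at 12 months. Crocidolite was given at 1 dose whose mass differs from every MWCNT dose, and every mouse carried the same vehicle.

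Mucus of the airways is a gel of very large glycoproteins, the mucins, that are folded in the endoplasmic reticulum of secretory cells, packed into granules and released onto the surface. In the resting mouse lung few airway cells store mucin. After type 2 cytokine signalling or injury, club cells of the airway lining can take on a mucous phenotype, in which the transcription factor Spdef drives the genes of mucin folding and secretion.

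In these lungs, 7 of the 8 genes tested higher than in vehicle lungs (limma adjusted p under 0.05) after 80 µg MWCNT at 1 month. Of all genes 1.69% did. The count was also 7 after crocidolite at 1, 6 and 12 months, against 2.93%, 1.45% and 4.31% of all genes. Mlph was among the 7 at 1 month, but did not pass when only those 2 groups were fitted (limma adjusted p = 0.0681). None of the 8 tested lower in any comparison with DM, where 2.83%, 2.23% and 2.16% of all genes did with crocidolite. The difference was widest for Clca1, the goblet cell secreted protein. Its mean log2 level at 1 month was 4.90 ± 1.42 (SD, n = 8) with DM and 11.26 ± 0.38 (SD, n = 8) with 80 µg MWCNT. At 12 months the genes stood apart by agent: Muc5ac, Muc5b and Agr2 were lower after 80 µg MWCNT than after crocidolite, and the mean level of Clca1 was 8.44 after either. All 3 passed among the arrays whose titles hold the word "replacement". Among the other arrays, from only 3 MWCNT and 2 crocidolite mice, 0 of the 3 did. The Muc5b estimate there turned its direction, within its error of 0 (0.21 ± 0.29 SE, limma adjusted p = 0.770). Spdef, the regulator, passed the test in 1 comparison with DM, at 80 µg and 6 months.

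All values are log2 levels of whole-lung RNA, and differences between groups are differences of mean log2 levels. In whole lung, more cells of a type and more RNA per cell cannot be told apart. There was 1 array for each mouse, 139 arrays in all, except that 1 mouse at 1 µg and 1 month had 2 arrays, which were averaged. Those 2 arrays differed for these genes, with Clca1 at 5.58 in the array whose title holds the word "replacement" and 9.53 in the other, and with either or neither array 0 of 8 genes passed at that dose. The array medians lay between 4.01 and 4.34. The word stands in 38 array titles, spread over groups from 0 to 5 arrays each. Against the other arrays, 5 arrays correlated less than the rest did. Skeletal muscle markers (Acta1, Ckm, Myh4, Mb, Tnnt3 and Actn3) averaged 5.64 or more in 17 mice, and 9 of these also averaged 6.54 or more in squamous epithelium markers (Krt4, Krt13, Sprr3, Krt6a, Sprr1a and Krtdap). Of the 17, 3 were DM mice at 1 month, 1 a DM mouse at 12 months, 1, 1 and 2 were 80 µg mice at 1, 6 and 12 months, and 3 were crocidolite mice at 6 months. The part of that tissue in the results was not tested, and the counts without these mice stand beside the counts they touch. Lung markers were high in every group: the 7 markers of alveolar type 2 cells and the 7 of club cells were all measured, and the club cell mean lay between 9.55 and 10.81 in the mice given DM, 80 µg MWCNT or crocidolite.

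The comparisons with DM ran over all 22180 genes in limma, a gene being called at a Benjamini-Hochberg adjusted p under 0.05. At 1 month, 0 of the 8 genes were called at 1 µg, where 0% of all genes were called higher and 4 of the 8 had an unadjusted p under 0.05. At 10 µg, 2 were called, Clca1 and Muc5b, against 0.018% of all genes that were higher. The count was 6 at 40 µg against 0.555%, 7 at 80 µg, and 7 with crocidolite. The median log2 difference of the 8 genes was 2.05 at 80 µg and 2.33 with crocidolite, and that of all genes was -0.01 in both. The 15 exposed groups are compared with 3 vehicle groups, so the comparisons of 1 time share their controls.

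At 6 months, 0 of 8 were called at 1 µg against 0%, and 0 at 10 µg against 0.00451%, with unadjusted p under 0.05 for 2 and 1 of them. At 40 µg, 5 were called (Clca1, Muc5b, Muc5ac, Fcgbp and Slc26a4) against 0.207%. All 8 were called at 80 µg against 0.803%, and 7 with crocidolite, all but Spdef. At 12 months, 0 were called at 1 and at 10 µg, where 0% of all genes were called at either dose and 0 and 4 of the 8 had an unadjusted p under 0.05. Clca1 alone was called at 40 µg against 0.0271%, 4 were called at 80 µg (Clca1, Muc5b, Fcgbp and Mlph) against 0.158%, and 7 with crocidolite, all but Spdef. The median difference of the 8 genes was 1.46 and 0.92 at 80 µg at 6 and 12 months, and 1.64 and 1.79 with crocidolite.

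Several counts changed with the groups, arrays or weights used, or with single mice. Fitting only DM and 10 µg raised the count at 1 month from 2 to 5. Fitting only DM and 80 µg left 2 called at 6 months, Clca1 and Agr2 (both at adjusted p = 0.0469 in limma), and 1 at 12 months, Clca1. At 40 µg and 12 months the count of 1 became 4 among arrays without the word, 0 among arrays with it (Clca1 2.40, adjusted p = 0.634) and 3 with array weights. Without MWCNT 80 µg replicate 8 the count at 12 months was 1, and without DM replicate 8 or 80 µg replicates 1 or 6 it was 2. At 40 µg and 6 months it fell to 3 without DM replicate 5 or 40 µg replicate 6, and to 2 without DM replicate 6 or 40 µg replicates 4, 7 or 8. The 10 µg count at 1 month fell to 1 without DM replicates 3, 5 or 8. Without the mice high in muscle or squamous markers the counts were 1 at 10 µg and 1 month, 4 at 40 µg and 6 months, 7 at 80 µg and 6 months and 3 at 80 µg and 12 months, and the others at 40 µg, at 80 µg and with crocidolite kept their value.

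**Figure D1:**
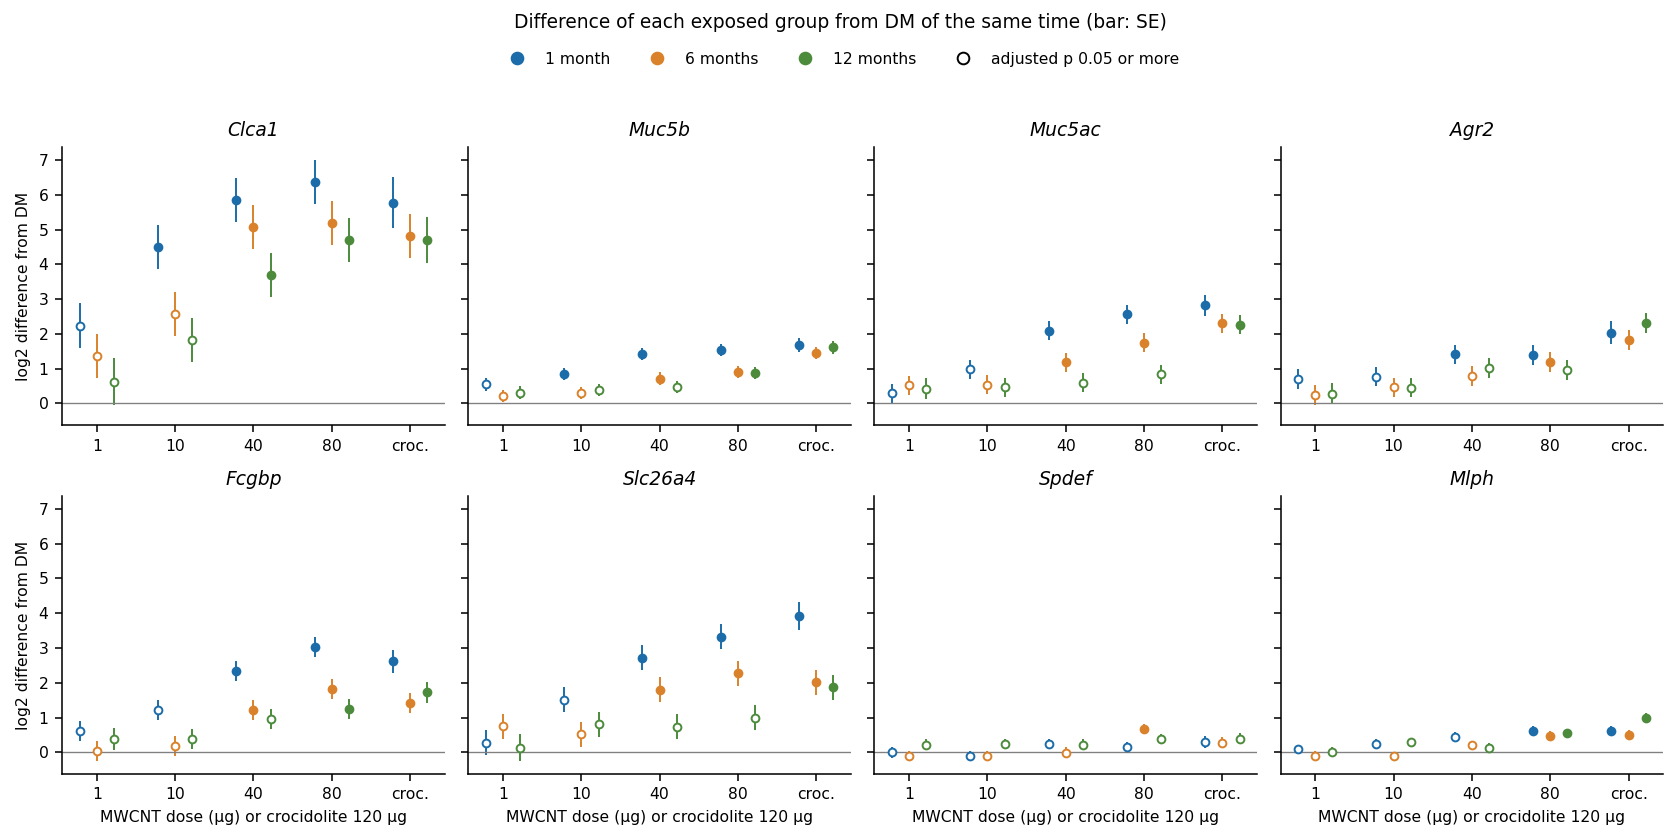
Difference in mean log2 level from DM of the same time (vertical axis, log2 units) for each of the 8 genes, by agent and dose (µg), with 1, 6 and 12 months side by side. Points are limma estimates with standard errors, filled where the adjusted p is under 0.05 and open otherwise: Clca1 reaches 6.36 at 80 µg and 1 month, while every Spdef difference lies under 0.70.

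The mucins that form the gel come first. Muc5ac encodes the mucin that is scarce in resting airways and made by goblet cells, and Muc5b the mucin that club and gland cells make at rest. The 2 genes are neighbours on mouse chromosome 7.

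At 1 month the Muc5ac level with DM had its lowest, median and highest mouse at 3.54, 3.87 and 4.29. At 80 µg MWCNT they were 6.09, 6.15 and 7.24, and with 40 µg they were 5.25, 5.83 and 6.73. The 5 crocidolite mice had 7.15, 7.12, 7.14, 5.26 and 6.70. No mouse of these exposed groups overlapped the DM mice, and the crocidolite mouse at 5.26 stood below the other 4. The log2 difference from DM was 2.57 ± 0.27 (SE; limma adjusted p = 8.18e-13) at 80 µg, a ratio of 5.92, and 2.82 ± 0.31 (adjusted p = 4.96e-12) with crocidolite. At 10 µg all 8 mice (4.41 to 5.30) also lay above all 8 DM mice, but the difference of 0.98 ± 0.27 did not pass (adjusted p = 0.431).

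By 12 months Muc5ac separated the 2 agents. DM mice had 3.23, 3.72 and 3.94 as lowest, median and highest, 80 µg MWCNT mice 3.59, 4.42 and 5.50, and crocidolite mice 5.71, 5.98 and 6.15. All 7 crocidolite mice lay above every DM mouse and above every 80 µg mouse, while the 80 µg mice reached from within the DM range upwards. The difference from DM was 2.27 ± 0.28 (adjusted p = 4.53e-10) with crocidolite and 0.84 ± 0.27 (adjusted p = 0.195) with 80 µg. At 6 months it was 2.30 ± 0.27 (adjusted p = 1.55e-10) and 1.74 ± 0.27 (adjusted p = 9.08e-06), and the 80 µg mice were then the most spread out, from 3.51 to 7.55.

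For Muc5b the vehicle level was 7.47 ± 0.28, 7.69 ± 0.34 and 7.70 ± 0.32 (SD, n = 8 each) at 1, 6 and 12 months. At 1 month its lowest, median and highest DM mouse had 6.96, 7.51 and 7.84, its 80 µg mice 8.51, 9.02 and 9.54, and its crocidolite mice 9.53, 9.03, 9.46, 8.65 and 9.06. Neither exposed group overlapped DM, and they overlapped each other. The differences from DM were 1.54 ± 0.17 (adjusted p = 1.53e-11) and 1.68 ± 0.20 (adjusted p = 9.19e-11). Muc5b was, with Clca1, 1 of the 2 genes called at 10 µg, with 7.83, 8.32 and 8.65 and a difference of 0.84 ± 0.17 (adjusted p = 0.0239). That call was lost among arrays without the word (0.70, adjusted p = 0.485).

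The Muc5b difference with crocidolite was 1.44 ± 0.17 at 6 months and 1.61 ± 0.18 at 12 months, both called (adjusted p = 3.24e-10 and 6.74e-12). With 80 µg MWCNT it was 0.91 ± 0.17 (adjusted p = 0.000531) and 0.88 ± 0.17 (adjusted p = 0.00328). The last was 0.66 ± 0.23 and not called among arrays with the word, and 1.35 ± 0.23 and called among arrays without it. At 12 months the mice with 80 µg had 7.94, 8.49 and 9.51 against 7.36, 7.63 and 8.20 with DM, so 6 of 8 lay above every DM mouse. The crocidolite mice had 8.62, 9.46 and 9.52 and all 7 lay above every DM mouse.

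The secreted partners of the mucins were Clca1, which codes for a metalloprotease-like protein released with mucus, and Fcgbp, a large protein with von Willebrand domains found in mucus. Clca1 had lowest, median and highest DM levels of 3.55, 4.59 and 8.10 at 1 month. The 8.10 belonged to 1 mouse, and the next highest had 5.36. With 80 µg MWCNT the values were 10.76, 11.33 and 11.83, with 40 µg they were 10.16, 10.72 and 11.55, and with 10 µg they were 8.23, 9.46 and 10.29.

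Every one of those 24 mice had more Clca1 than every DM mouse, including the high one. Log2 differences from DM were 4.50 ± 0.63 (adjusted p = 1.81e-06), 5.85 ± 0.63 (adjusted p = 1.01e-11) and 6.36 ± 0.63 (adjusted p = 3.50e-14) at 10, 40 and 80 µg, which are ratios of 22.7, 57.5 and 82.4. The 5 crocidolite mice had 10.67, 10.64, 11.32, 10.10 and 10.66, a difference of 5.78 ± 0.72 (adjusted p = 6.47e-10). At 1 µg the mice were spread from 4.79 to 10.05, 3 of 8 above all DM mice, and the difference of 2.24 ± 0.63 did not pass (unadjusted p = 0.000579).

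Clca1 stayed above the vehicle to the last time. At 12 months DM mice had 3.30, 3.69 and 4.75 as lowest, median and highest, 40 µg mice 5.09, 6.94 and 9.76, 80 µg mice 6.70, 8.29 and 9.76, and crocidolite mice 7.04, 8.86 and 9.39. No mouse of these 3 exposed groups overlapped the DM mice. The differences were 3.70 ± 0.63 (adjusted p = 0.000481), 4.70 ± 0.63 (adjusted p = 1.28e-07, a ratio of 26.1) and 4.70 ± 0.66 (adjusted p = 2.50e-08). At 6 months 80 µg mice had 3.71, 9.56 and 11.76 against 3.05, 3.75 and 6.28 with DM, so 7 of 8 lay above every DM mouse and 1 lay at the vehicle median. That mouse was also the lowest of its group for 7 of the 8 genes.

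Fcgbp had DM levels of 4.03, 4.47 and 4.90 at 1 month, and 6.80, 7.43 and 8.07 with 80 µg MWCNT. Its 5 crocidolite mice had 7.19, 6.82, 7.45, 6.62 and 7.13. All exposed mice of both groups lay above all DM mice, with differences of 3.03 ± 0.29 (adjusted p = 3.37e-15) and 2.62 ± 0.33 (adjusted p = 6.79e-10). At 10 µg, too, all 8 mice (5.02 to 6.09) lay above the DM mice, but the difference of 1.21 ± 0.29 missed the threshold (adjusted p = 0.104). By 12 months the differences were 1.25 ± 0.29 (adjusted p = 0.0229) at 80 µg, whose lowest mouse at 4.71 stood just over the highest DM mouse at 4.68, and 1.72 ± 0.30 (adjusted p = 9.25e-06) with crocidolite (5.63, 6.20 and 6.49). The call at 80 µg was lost without DM replicates 7 or 8 or 80 µg replicates 1, 6, 7 or 8. Fitting only DM and 80 µg of that time lost it too (limma adjusted p = 0.0906). Among arrays with the word the difference was 0.57 ± 0.36 and not called, and among arrays without it 2.13 ± 0.40 and called.

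**Figure D2:**
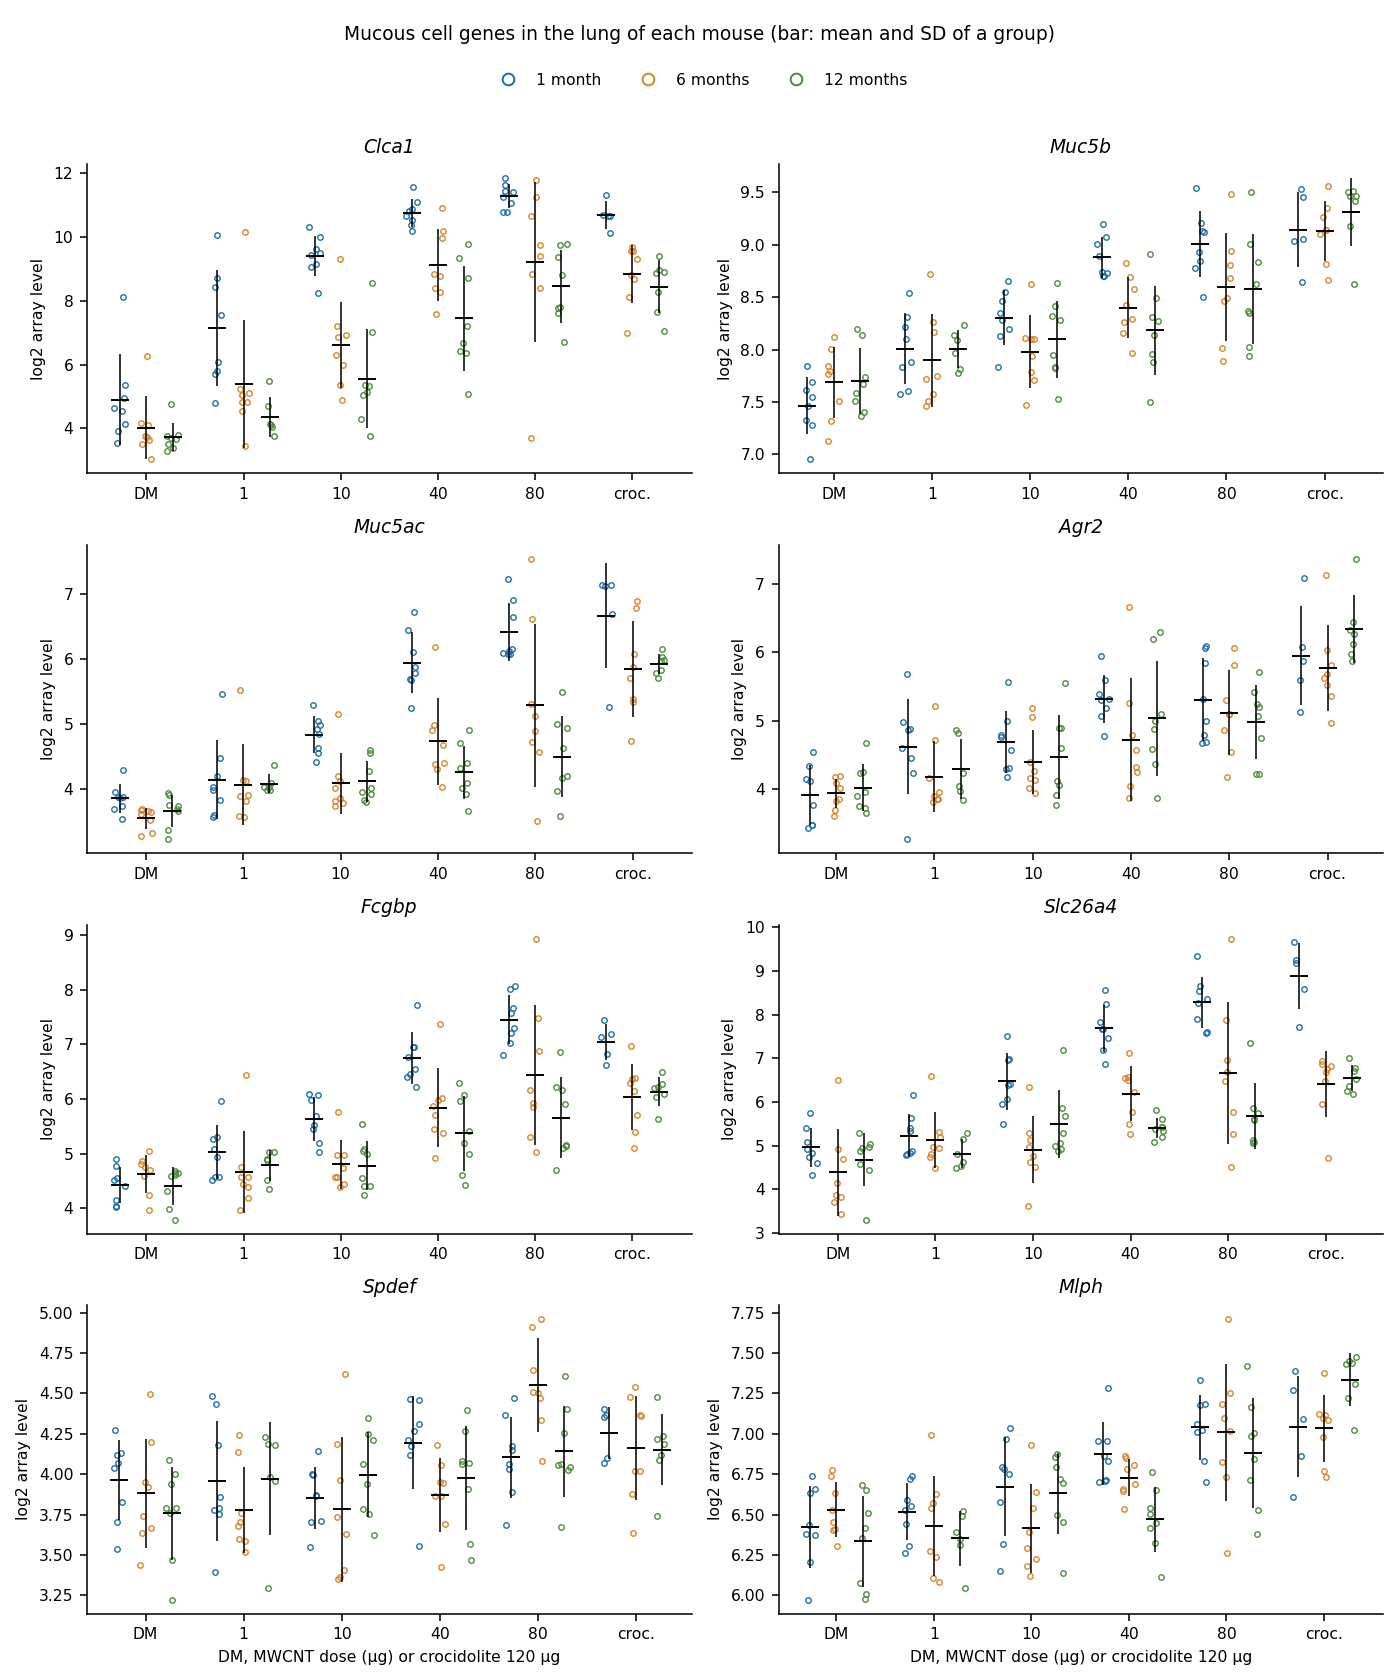
Log2 level of each of the 8 genes in every mouse (open circles, vertical axis) by agent and dose (µg), coloured by time after exposure (1, 6 or 12 months), with the group mean and SD as black bars and a vertical scale of its own for each gene. For Clca1 the 80 µg mice at 1 month lie between 10.76 and 11.83 and the DM mice of that time between 3.55 and 8.10, while for Spdef the groups overlap.

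Agr2 makes a protein disulfide isomerase of the endoplasmic reticulum that mucin folding needs. Vehicle mice had 3.43, 3.95 and 4.54 at 1 month and 3.66, 3.93 and 4.67 at 12 months. Crocidolite mice had 5.87, 5.60, 6.07, 5.13 and 7.08 at 1 month, and 5.87, 6.26 and 7.37 as lowest, median and highest at 12 months. The crocidolite mice lay above all DM mice at each time, and the differences were 2.04 ± 0.32 (adjusted p = 8.17e-07), 1.83 ± 0.28 (adjusted p = 1.16e-06) and 2.32 ± 0.29 (adjusted p = 6.51e-10) at 1, 6 and 12 months.

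After 80 µg MWCNT, Agr2 ran from 4.68 to 6.08 at 1 month, above all DM mice, and from 4.22 to 5.71 at 12 months, with 6 of 8 above them. The differences were 1.39 ± 0.28 (adjusted p = 0.000443), 1.18 ± 0.28 (adjusted p = 0.0104) and 0.96 ± 0.28 (adjusted p = 0.135). Both calls were lost among arrays without the word (1.24, adjusted p = 0.139, and 0.96, adjusted p = 0.212), and that at 6 months also without 80 µg replicates 2 or 6. At 40 µg the difference was 1.41 ± 0.28 (adjusted p = 0.00104) at 1 month, close to that at 80 µg but lost among arrays without the word (1.20, adjusted p = 0.145), and 1.01 ± 0.28 (adjusted p = 0.12) at 12 months.

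Spdef codes for the ETS-family transcription factor of the mucous phenotype. Its group means ranged over 0.79 log2 units in all, from 3.76 with DM at 12 months to 4.55 with 80 µg MWCNT at 6 months. In that group the mice had 4.08, 4.51 and 4.96 against 3.44, 3.83 and 4.50 with DM, and 5 of 8 lay above every DM mouse. The difference of 0.67 ± 0.15 (adjusted p = 0.00345) was the only call for Spdef in the 15 comparisons with DM. It did not hold when only these groups were fitted (adjusted p = 0.0782) or among arrays without the word in their titles (0.59, adjusted p = 0.116).

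At 1 month Spdef had 3.54, 4.05 and 4.28 with DM and 3.68, 4.11 and 4.47 with 80 µg, which overlap over most of their range. Here the difference was 0.14 ± 0.15 (95% interval -0.15 to 0.43), and with crocidolite it was 0.29 ± 0.17, 0.28 ± 0.15 and 0.39 ± 0.15 at 1, 6 and 12 months (adjusted p = 0.386, 0.355 and 0.112). The difference at 80 µg and 1 month thus lies under 0.43 log2 units at its upper bound, where that of Clca1 lies above 5.11 at its lower bound. Spdef, Muc5ac and Agr2 are the members whose mean level over all arrays (4.01, 4.74 and 4.81) is under the median of all genes, 4.90.

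The genes that move together raise the question of what their promoters share. Promoter sequences from RefSeq (GRCm38.p6) were matched for Agr2, Spdef, Fcgbp, Slc26a4 and Mlph, 5 of the 8 genes. The 250 bases before the start were searched on both strands for the ETS-type cores CCGGAT and CAGGAT, the STAT-type palindromes (TTC and GAA with 4 bases between them, and TTCNNNGAA), the forkhead forms TGTTTAC and TGTTTGC, and the TATA box TATAAA. Other ETS-type words were not searched. The 3 promoters that hold CAGGAT are shown, since they are the ones with a match to either of these ETS-type cores. Each is read 5′ to 3′ along its gene's strand, and capitals mark the matches (ATCCTG is CAGGAT read on the other strand).
Agr2: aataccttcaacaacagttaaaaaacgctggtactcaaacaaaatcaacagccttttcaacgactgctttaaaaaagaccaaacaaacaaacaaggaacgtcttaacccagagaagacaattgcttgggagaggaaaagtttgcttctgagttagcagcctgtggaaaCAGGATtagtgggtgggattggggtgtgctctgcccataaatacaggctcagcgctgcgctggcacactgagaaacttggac
Slc26a4: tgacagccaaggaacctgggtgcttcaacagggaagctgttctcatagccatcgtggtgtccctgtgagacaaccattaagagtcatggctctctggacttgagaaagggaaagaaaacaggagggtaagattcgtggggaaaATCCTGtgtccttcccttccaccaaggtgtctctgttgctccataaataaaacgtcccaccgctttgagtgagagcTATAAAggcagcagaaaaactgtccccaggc
Spdef: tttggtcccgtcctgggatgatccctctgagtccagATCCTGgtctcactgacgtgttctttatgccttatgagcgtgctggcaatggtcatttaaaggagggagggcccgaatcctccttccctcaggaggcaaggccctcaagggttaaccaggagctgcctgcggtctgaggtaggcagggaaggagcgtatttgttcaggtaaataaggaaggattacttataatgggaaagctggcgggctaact

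These windows are chr12:35992675-35992924 (plus strand) for Agr2, chr12:31559985-31560234 (minus strand) for Slc26a4 and chr17:27728952-27729201 (minus strand) for Spdef. The CAGGAT match ends 77 bases before the start in Agr2 and 209 in Spdef, and begins 107 bases before it in Slc26a4. It is a common word: 13.6% of 32851 promoter windows of the same length hold it. Slc26a4 also holds TATAAA, 26 bases before it, as 12.4% of windows do. Neither palindrome (5.85% and 7.02% of windows), nor CCGGAT (4.94%), nor the forkhead forms (3.17% and 4.3%) lie in any of the 5 windows. A match is a description of letters and not of binding.

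Slc26a4 encodes pendrin, an exchanger of chloride, bicarbonate and thiocyanate on the apical face of secretory cells. At 1 month its DM mice had 4.32, 4.88 and 5.75, its 80 µg mice 7.58, 8.31 and 9.34, and its crocidolite mice 9.19, 7.72, 8.59, 9.67 and 9.26. All 13 exposed mice lay above all DM mice. The differences were 3.32 ± 0.36 (adjusted p = 1.65e-12), a ratio of 9.98, and 3.92 ± 0.41 (adjusted p = 3.56e-13), a ratio of 15.2.

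Later groups of Slc26a4 overlapped more. At 6 months the 80 µg mice had 4.51, 6.58 and 9.73 and the DM mice 3.43, 4.01 and 6.51, so that 4 of 8 exceeded every DM mouse, and the difference was 2.27 ± 0.36 (adjusted p = 9.08e-06). At 12 months it was 1.00 ± 0.36 (adjusted p = 0.250) at 80 µg, with mice at 5.07, 5.60 and 7.36 against 3.31, 4.91 and 5.29. Crocidolite mice of that time had 6.19, 6.53 and 7.00, all 7 above the DM mice, with a difference of 1.86 ± 0.37 (adjusted p = 0.000161), which was 1.78 (adjusted p = 0.0777) among arrays without the word.

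Mlph makes melanophilin, a link between Rab27 on granules and myosin. Its vehicle mice had 5.97, 6.41 and 6.74 at 1 month and 5.98, 6.38 and 6.69 at 12 months. At 80 µg MWCNT they had 6.70, 7.04 and 7.33, then 6.38, 6.91 and 7.42, and with crocidolite 7.39, 6.61, 7.27, 6.86 and 7.09 at 1 month, then 7.02, 7.43 and 7.48. In these 4 groups, the crocidolite mice at 12 months were the ones that lay wholly above the DM mice of their time, with a difference of 1.00 ± 0.13 (adjusted p = 3.06e-09). At 1 month the crocidolite difference was 0.62 and called. That call was lost among arrays without the word (0.44, limma adjusted p = 0.350) and among arrays with it (0.74, adjusted p = 0.113). It was also lost when only DM and crocidolite of that time were fitted (adjusted p = 0.0681).

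At 80 µg the Mlph difference was 0.62 ± 0.13 (adjusted p = 0.000613), 0.48 ± 0.13 (adjusted p = 0.0318) and 0.55 ± 0.13 (adjusted p = 0.0242) at 1, 6 and 12 months. Among arrays without the word the first 2 calls were lost (0.55, limma adjusted p = 0.139, and 0.42, adjusted p = 0.212). Among arrays with it the calls at 1 month (0.74, adjusted p = 0.192) and at 12 months (0.49 ± 0.21) were lost. Leaving out 1 mouse at a time lost the call at 6 months in 9 of 16 fits (DM replicates 1, 3, 5, 6 or 8, and 80 µg replicates 2, 3, 6 or 8). At 12 months it was lost in 7 of 16 (DM replicates 2, 3 or 8, and 80 µg replicates 1, 3, 6 or 8). At 40 µg it was 0.45 ± 0.13 at 1 month (adjusted p = 0.0742) and 0.20 ± 0.13 at 6 months (adjusted p = 0.709).

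Every exposed mouse lay above every DM mouse for 6 of the 8 genes at 80 µg and 1 month, where 0.775% of all genes separated in this way, for 0 at 6 months (0.0676%) and for 2 at 12 months (0.0992%). With crocidolite the counts were 6 (1.23%), 5 (0.392%) and 7 (1.43%). At 40 µg they were 6 (0.352%), 2 (0.113%) and 1 (0.0496%). At 10 µg they were 3 at 1 month (0.0271%), 1 at 6 months (0.00902%) and 0 at 12 months (0%), and at 1 µg 0, 0 and 1 (0%, 0% and 0.00451%).

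Ordered by mean, the 18 groups formed a near-continuous series for each gene. Clca1, Fcgbp and Spdef had their highest mean with 80 µg MWCNT (at 1, 1 and 6 months), Muc5ac and Slc26a4 with crocidolite at 1 month, and Muc5b, Agr2 and Mlph with crocidolite at 12 months. The lowest mean was a DM group for all 8. Of the 17 steps between neighbouring means, the gap exceeded the larger of the 2 SDs in 2 for Clca1, in 1 each for Muc5ac, Slc26a4 and Spdef, and in 0 for the other 4. For Clca1 these were the steps from 80 to 40 µg at 1 month (0.52) and from crocidolite to 10 µg at 1 month (1.27), and all other neighbours lay within their spread. The distance from the lowest to the highest group mean was 7.52 for Clca1, 4.49 for Slc26a4, 3.12 for Muc5ac, 3.04 for Fcgbp, 2.42 for Agr2, 1.84 for Muc5b, 1.00 for Mlph and 0.79 for Spdef.

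The dose question was asked as a slope of the 5 vehicle and MWCNT group means on log2 of the dose in µg plus 1. Slopes were positive and called for 7 genes at 1 month, all but Spdef, against 2.56% of all genes, for 8 at 6 months against 1.18%, and for 5 at 12 months (Clca1, Muc5b, Agr2, Fcgbp and Mlph) against 0.591%. Clca1 rose by 0.95 ± 0.08, 0.82 ± 0.08 and 0.73 ± 0.08 log2 units per unit of log2 dose at 1, 6 and 12 months. The Muc5ac slope was 0.40 ± 0.04, 0.23 ± 0.04 and 0.10 ± 0.04 (adjusted p = 0.124 at the last), and that of Slc26a4 0.53 ± 0.05, 0.32 ± 0.05 and 0.15 ± 0.05 (adjusted p = 0.0831 at the last). Agr2 had 0.20 ± 0.04, 0.17 ± 0.04 and 0.16 ± 0.04.

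No step between neighbouring doses was called for any gene, 0 of 72 tests, where 0.018% of all genes were called from 10 to 40 µg at 1 month, 0.00451% and 0.00902% in the lower steps at 6 months, 0.0451% and 0.00451% in the upper steps at 12 months and 0% in the other 4. With array weights 1 step was called, without the mice high in muscle or squamous markers 1, and among arrays without the word 2. From the lowest step to the highest, the unadjusted p was under 0.05 for 4, 7 and 1 genes 1 month after exposure, for 0, 6 and 4 genes after 6 months, and for 1, 2 and 2 genes after 12 months. It was under 0.05 for 7 of the 8 genes from 10 to 40 µg at 1 month, among them Muc5ac (1.11 ± 0.27, adjusted p = 0.217) and Fcgbp (1.12 ± 0.29, adjusted p = 0.243). It was under 0.05 for 1 gene from 40 to 80 µg at that time, Fcgbp (0.70 ± 0.29). The lowest unadjusted p in these tests, 9.23e-06, was that of Spdef from 40 to 80 µg at 6 months (0.68 ± 0.15, adjusted p = 0.205).

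Whether the response changed with time was tested as the difference from DM at 6 or 12 months less that at 1 month. None of the 64 tests passed. Fitting only the groups compared 6 passed, with array weights 2, and without arrays of low correlation 2. At an unadjusted p under 0.05, the counts at 6 and 12 months were 4 and 2 genes at 10 µg, 3 and 5 at 40 µg, 5 and 4 at 80 µg, and 2 and 2 with crocidolite. At 80 µg and 12 months Slc26a4 changed by -2.32 ± 0.51 (adjusted p = 0.0626), Fcgbp by -1.78 ± 0.41 and Muc5ac by -1.73 ± 0.39 (both adjusted p = 0.0656), where 0.00902% of all genes were called. The Clca1 change there was -1.66 ± 0.90 (95% interval -3.44 to 0.11). With crocidolite at 12 months Slc26a4 changed by -2.06 ± 0.55 (adjusted p = 0.161), against 0.0541% of all genes called (0.0271% at 6 months, and 0% in the other MWCNT comparisons). In DM mice themselves 0 of the 8 genes were called between 1 and 6 or 12 months, against 0.135% and 1.12% of all genes, and 0 had an unadjusted p under 0.05.

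The agents were set side by side at their own masses, 80 µg MWCNT and 120 µg crocidolite. At 1 and 6 months 0 of the 8 genes were called, against 0.0902% and 0.0271% of all genes, with 1 and 4 at an unadjusted p under 0.05. The 95% intervals at 1 month were wide: -0.84 to 2.02 for Clca1, -0.87 to 0.36 for Muc5ac and -1.28 to -0.01 for Agr2. At 6 months Muc5b differed by -0.53 ± 0.17 (unadjusted p = 0.00274, adjusted p = 0.902) and Spdef by 0.39 ± 0.15 (unadjusted p = 0.00901, adjusted p = 0.961).

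At 12 months 3 genes were lower with MWCNT, against 0.83% of all genes. Muc5ac differed by -1.43 ± 0.28 (95% interval -1.99 to -0.87; limma adjusted p = 0.000956), Agr2 by -1.36 ± 0.29 (-1.94 to -0.78; adjusted p = 0.00352) and Muc5b by -0.73 ± 0.18 (-1.09 to -0.37; adjusted p = 0.0178). For Muc5ac and Agr2 all 8 MWCNT mice lay below all 7 crocidolite mice, and for Muc5b 5 of 8 did. The share of all genes that separate the agents in this way was not computed. Mlph (-0.45 ± 0.13, adjusted p = 0.0652) and Slc26a4 (-0.87 ± 0.37, adjusted p = 0.288) did not pass, and Clca1 differed by 0.00 (-1.29 to 1.30).

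The 12-month groups each hold 5 arrays with the word "replacement". Among these the differences were -1.84 for Muc5ac, -1.38 for Agr2 and -1.21 for Muc5b, all 3 called. Among the other 3 MWCNT and 2 crocidolite mice 0 were called. The differences were -0.71 for Muc5ac (limma adjusted p = 0.470) and -1.51 for Agr2 (adjusted p = 0.0734). For Muc5b it was 0.21 ± 0.29 (SE; adjusted p = 0.770), so its estimate turned direction, within its error. What the word marks was not tested. Muc5b also lost its call without 80 µg replicates 2 or 4 or crocidolite replicate 2, and without the mice high in squamous or muscle markers (-0.70, adjusted p = 0.0692). Fitting only these 2 groups lost the Muc5b call too (limma adjusted p = 0.175), while Muc5ac and Agr2 kept theirs (adjusted p = 0.00464 and 0.0172). Whether the gap between agents was wider at 12 than at 1 month was tested after the values had been seen: 0 of 8 genes passed, against 0% of all genes, and 4 had an unadjusted p under 0.05, with Muc5ac at -1.17 ± 0.42 (adjusted p = 0.302).

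**Figure D3:**
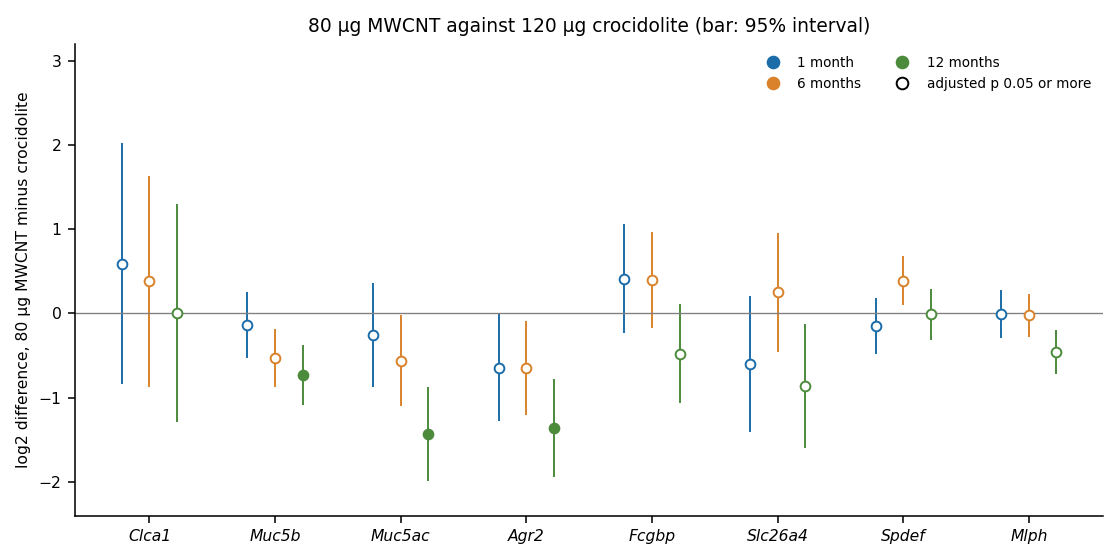
Difference in mean log2 level between 80 µg MWCNT and 120 µg crocidolite (vertical axis, log2 units, negative where MWCNT is lower) for each gene at 1, 6 and 12 months, with 95% intervals. Filled points have an adjusted p under 0.05: Muc5ac, Agr2 and Muc5b at 12 months, at -1.43, -1.36 and -0.73.

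Within groups the genes varied together from mouse to mouse. After removing each group's mean, Muc5ac and Fcgbp had a Pearson r of 0.81 and a Spearman rho of 0.69 over all mice (permutation within groups, p = 1e-05 for each, the smallest that 100000 permutations can give; adjusted over the 28 pairs 1.75e-05 and 2.15e-05). Without the 2 mice farthest from the median r was 0.76. Clca1 and Muc5ac had an r of 0.71 and a rho of 0.63 (0.65 without 2 mice), and Clca1 and Fcgbp 0.70 and 0.66, with the same p-values. Mlph followed Muc5b most closely, at 0.68 and 0.63.

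Spdef varied least with the others. Its 7 pairs had r between 0.14 and 0.27, and 4 of them, those with Clca1, Agr2, Slc26a4 and Mlph, did not pass after adjustment (adjusted permutation p = 0.0977, 0.0898, 0.134 and 0.0822). The other 24 of the 28 pairs passed by Pearson r. By Spearman rho, Spdef with Fcgbp (0.15, adjusted permutation p = 0.103) and Agr2 with Mlph (0.16, adjusted permutation p = 0.0864) did not pass either. Agr2 with Mlph had an r of 0.24, within the range of the Spdef pairs. In the 92 mice given 10 µg MWCNT or more or crocidolite, Muc5ac and Fcgbp had an r of 0.86. All genes of a mouse share its array and its RNA, so such r values also hold what differs between arrays. How large a share of pairs drawn from all genes would pass was not computed.

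Single mice show the same. In the 80 µg group at 12 months replicate 8 was the highest of its group for all 8 genes. At 6 months replicate 2 was highest for 7 and replicate 7 lowest for 7. With crocidolite at 6 months replicate 6 was lowest for 7.

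**Figure D4:**
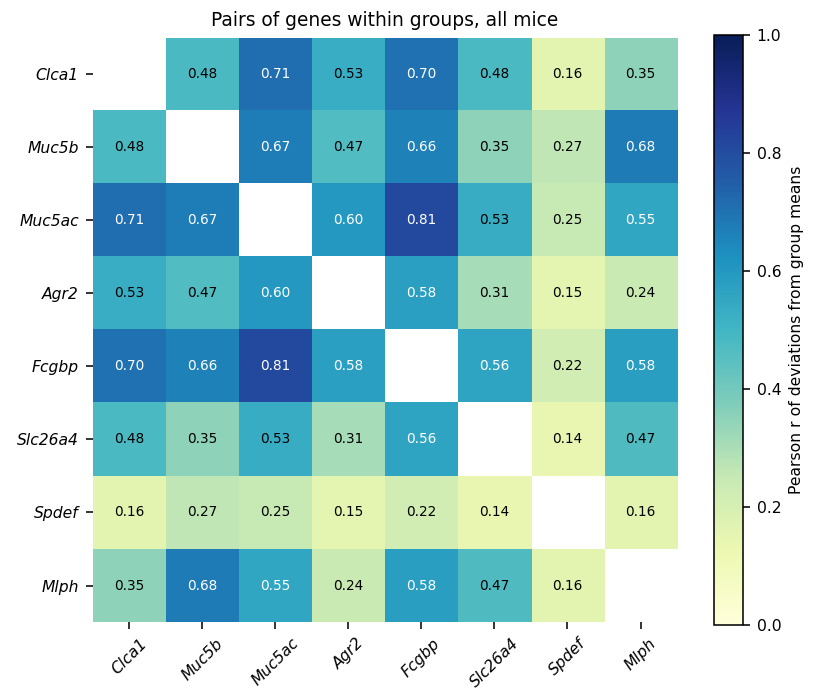
Pearson r between each pair of the 8 genes over all mice, computed on deviations from the group means (colour scale from 0 to 1, value printed in each cell). The highest is Muc5ac with Fcgbp at 0.81, and the Spdef row is the palest, at 0.14 to 0.27.

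Outside the 8 genes, and leaving out predicted genes, those whose 18 group means ran most like each member were named by Pearson r, as a description that shares all arrays and doses. For Clca1 they were Ccl17, a chemokine for type 2 helper cells (0.96), Retnla (0.94), a marker of alternative macrophage activation, and Fer1l6 (0.94). For Muc5ac they were Chil1 (0.98), Sftpd (0.97) and Clip4 (0.97), and for Slc26a4 Timp1, Chil1 and Sftpd (0.98 each). Agr2 was most like Reg3g and Cxcl17 (0.97 each) and Scgb3a1 (0.96), which airway secretory cells make. The likeness of Spdef was weaker, with Gramd1b and Ssh3 at 0.82 and Eya4 at 0.79.

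For Muc5b the 3 genes were Muc4, C3ar1 and Adam8 (0.96 each), for Fcgbp Sftpd and Chil1 (0.97) and Fer1l6 (0.96), and for Mlph C3ar1 (0.96), Hpgds (0.95) and Cd68 (0.95). Among the 8 genes themselves the group means ran closest for Muc5b and Agr2, with an r of 0.96, which for Muc5b lies between the likeness of Muc4 and that of C3ar1.

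Around these 8 genes, a list of 29 further genes of mucin assembly and the mucous programme was measured in full. With 80 µg MWCNT 7, 2 and 0 of the 29 were higher and 0 lower at 1, 6 and 12 months. With crocidolite 10, 6 and 8 were higher, and 1, 0 and 0 lower. Of all genes, 1.69%, 0.803% and 0.158% were higher with 80 µg, 2.93%, 1.45% and 4.31% higher with crocidolite, and 2.83%, 2.23% and 2.16% lower with it, and the counts of the lists below stand against the same shares. Its median difference was 0.17, 0.18 and 0.15 with 80 µg and 0.21, 0.13 and 0.25 with crocidolite, where the median of all genes lay between -0.03 and 0.01. The actin-severing protein gene Scin differed by 1.90 ± 0.25 (adjusted p = 4.98e-09) with 80 µg at 1 month and by 0.11 at 12 months (adjusted p = 0.919). Itln1, the lectin intelectin, differed by 1.72 ± 0.26, 1.25 ± 0.23 and 2.05 ± 0.24 with crocidolite, all called, and by 0.82 ± 0.23 (adjusted p = 0.0338), 0.42 (adjusted p = 0.661) and 0.32 (adjusted p = 0.658) with 80 µg.

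At 12 months Itln1 was lower with MWCNT than with crocidolite by 1.74 log2 units (-1.74 ± 0.24, adjusted p = 8.40e-08). Tff2, a trefoil peptide of mucus, differed from DM by 1.56 ± 0.32 at 80 µg and 1 month (adjusted p = 0.000522) and by 1.51 ± 0.33 with crocidolite at 12 months (adjusted p = 0.000726). Bpifb1, a secreted airway defence protein, was called with both agents at 1 and 6 months, by 1.15 and 1.33 with 80 µg and 1.18 and 1.20 with crocidolite, and at 12 months with crocidolite (1.52), where 80 µg gave 0.94 (adjusted p = 0.103).

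Of 12 further mucin genes 10 were measured. Both of those called are membrane mucins, Muc1 and Muc4. Muc4 differed from DM by 1.11 ± 0.16 and 0.97 ± 0.16 with 80 µg at 1 and 6 months (both called), by 0.57 ± 0.16 at 12 months (adjusted p = 0.106), and by 1.10, 1.22 and 1.22 with crocidolite, all called. Muc1 was higher by 0.46 ± 0.10 with 80 µg at 1 month (adjusted p = 0.000853) and by 0.51, 0.41 and 0.76 with crocidolite. At 12 months both were lower with MWCNT than with crocidolite (Muc4 -0.65 ± 0.17, adjusted p = 0.0223, and Muc1 -0.42 ± 0.10, adjusted p = 0.0137). Muc2, the gel mucin of the intestine, was not called, nor was any of the 5 intestinal goblet cell markers it belongs to.

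Type 2 cytokines lie upstream of the mucous phenotype. Of 20 listed genes of their axis (cytokines, receptors, signalling genes, chemokines and others, not all of them upstream) 18 were measured. With 80 µg 2, 2 and 0 were higher, and with crocidolite 3, 3 and 2 higher and 1, 1 and 0 lower. Il33, an alarm cytokine of barrier cells, differed by 1.03 ± 0.15 (adjusted p = 1.56e-07), 0.76 ± 0.15 (adjusted p = 0.000645) and 0.19 ± 0.15 (adjusted p = 0.686) with 80 µg, and by 1.46, 0.77 and 0.97 with crocidolite, all called. Ccl11, the eosinophil chemokine, was called at 1 and 6 months with both agents, by 1.45 and 1.06 with 80 µg and 1.95 and 1.06 with crocidolite. Il13ra1, a receptor chain for interleukin 13, was higher with crocidolite by 0.43, 0.35 and 0.56, and the gene that was lower was Postn (-0.36 and -0.35). Il4, Il5 and Il13 were not called in these 6 comparisons.

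The upstream airway regulators moved little by count. Of 23 measured genes of the Egfr and Notch ligands and airway fate factors 0 were called with 80 µg at any time, and with crocidolite 0, 1 and 1 were higher, in both cases Grhl2 (0.39 and 0.35), which is 1 of 23 where 1.45% and 4.31% of all genes were higher. Of 16 ion transport genes, Kcne3, a potassium channel subunit, was called with 80 µg at 1 month (0.45 ± 0.13) and with crocidolite at all times (0.71, 0.59 and 0.79). The chloride channel gene Slc26a9 was called with crocidolite at 12 months (0.53 ± 0.11).

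Markers of other cells moved beside the 8 genes, and their part in the results was not tested. Of 7 club cell markers, Scgb3a1 was higher with 80 µg at 1 and 6 months (0.82 and 0.87) and with crocidolite throughout (1.34, 1.93 and 2.30). With crocidolite at 1 month 5 club cell markers were lower, among them Cyp2f2 (-0.60 ± 0.09) and Aldh1a1 (-0.65 ± 0.11), and the club cell mean ran from 9.55 to 10.34 there against 10.02 to 10.48 with DM. Scgb1a1 was not called in any of the 6 comparisons.

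Of 8 ciliated cell markers 2, 0 and 0 were higher with 80 µg and 0, 2 and 5 with crocidolite, and of 6 general epithelial genes 0, 0 and 0, and 0, 1 and 5. At 12 months the epithelial mean had its lowest, median and highest mouse at 7.03, 7.65 and 7.79 with DM, 7.10, 7.84 and 8.12 with 80 µg and 7.83, 7.97 and 8.18 with crocidolite. Crocidolite mice thus lay wholly above the DM mice for it, as they did for 7 of the 8 mucous genes. They also did so for the means of the club cell, ciliated cell, alveolar type 2, gland and eosinophil markers. Such means of few genes can be moved by single genes, and the lists were not tested as sets. With crocidolite at 12 months Scgb3a1 of the club cell list differed from DM by 2.30 and Dmbt1 of the gland list by 4.36. The median difference of the gland list is given below. The club cell mean ran from 10.67 to 10.77 there, against 10.20 to 10.42 with DM. The means of the other cell lists overlapped. Of 7 alveolar type 2 markers 3, 2 and 0 were higher with 80 µg and 3, 2 and 4 with crocidolite, led by Sftpd (0.93 and 0.95 at 1 month).

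Of 7 gland and serous markers 6 were measured, of which 1, 1 and 0 were higher with 80 µg and 2, 2 and 2 with crocidolite, while the median difference of the list was -0.25, 0.28 and 0.11 with 80 µg and -0.11, 0.35 and -0.04 with crocidolite. Ltf was higher with 80 µg at 1 and 6 months (1.16 and 1.60), and Ltf and Dmbt1 were higher with crocidolite at each time, Dmbt1 by 2.83, 3.53 and 4.36. Dmbt1 differed between the agents at all 3 times (-2.57, -3.24 and -4.09 for MWCNT less crocidolite, all called). Of 5 eosinophil markers 1, 0 and 0 were higher with 80 µg (Ear6, 0.89 at 1 month) and 1, 0 and 1 with crocidolite, and of 5 mast cell, 6 skeletal muscle and 5 intestinal goblet cell markers none was called in the 6 comparisons. Of 5 basal cell markers measured 0 were called with 80 µg and 1, 1 and 2 with crocidolite (Aqp3 1.08 and Trp63 0.98 at 12 months), of 6 squamous markers 1 was called, Sprr1a with crocidolite at 12 months (1.89 ± 0.46), and of 6 alveolar type 1 markers 2, 0 and 1 were lower with crocidolite, led by Cav1 (-0.42 at 1 month).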

How the data were processed

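Lung RNA of male mice was labelled as biotinylated cDNA with an Affymetrix WT Plus kit and hybridised to 1-colour arrays, per the labels' protocols. The deposited log2 values were normalized by the authors with RMA in oligo, and limma is also named, per the submitters' processing notes; their versions and a genome build are stated in no source used here. The value table holds 41345 features, of which 23521 pair with 1 symbol, 1814 with several and 16010 with none, through the platform annotation. For each gene the feature with the highest mean was kept, the 2 arrays of 1 mouse were averaged, and 22180 genes were fitted in limma 3.58.1 (R 4.3.3) with 1 mean per group and 120 residual degrees of freedom. All limma tests are two-sided and moderated, with Benjamini-Hochberg adjustment over all genes and a threshold of 0.05. The fit was tested on simulated data.

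The labels give each mouse its own number. Replicate numbers only name mice and pair none. The number of arrays limits the precision, and read depth has no meaning here. The 8 genes and all lists were chosen with earlier results of these data known. From each list the text names genes past the test with 80 µg MWCNT or crocidolite, at most the 4 with the largest difference, and the genes that define it, and it names the 3 genes most like each member. Mice were called high in a marker list at over 5 median absolute deviations above the median of all mice. Alternatives covered the threshold, the normalization, a filter on low levels, array weights, the word in array titles, arrays of low correlation, single mice and the groups fitted together. Those on the second array of 1 mouse with the word, on mice high in muscle or squamous markers, and the test of the agents across time were added after seeing the data.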

Additional observations from a re-analysis of the deposited data

Results flagged for a closer look

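In 23 of 144 sets of values (a gene in a group), the highest or lowest mouse stood far from the others by Dixon's criterion, where chance gives about 1 in 20, or 7.2. No gene moved in opposite directions in every mouse of compared groups.

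The mouse given 1 µg MWCNT and taken at 6 months as replicate 7 was high for 4 genes: Clca1 had 10.1 where the nearest other mouse had 5.25, Muc5ac 5.52 (nearest 4.14), Fcgbp 6.43 (nearest 4.76) and Slc26a4 6.60 (nearest 5.30). Replicate 4 at 10 µg and 6 months was high for Muc5ac at 5.16 (nearest 4.20) and Fcgbp at 5.76 (nearest 4.97). Replicate 4 at 40 µg and 6 months was high for the same pair, with Muc5ac at 6.19 (nearest 4.99) and Fcgbp at 7.38 (nearest 6.01). At 80 µg and 6 months replicate 7 was low for Clca1 at 3.71 (nearest 8.38).

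In DM mice Clca1 was high in 1 mouse at each time, at 8.10 (nearest 5.36), 6.28 (nearest 4.16) and 4.75 (nearest 3.78) at 1, 6 and 12 months. The mouse at 4.75, DM replicate 2 at 12 months, was low for Slc26a4 at 3.31 (nearest 4.43), and its array was among the 5 of low correlation. Replicate 3 at 1 µg and 12 months was high for Muc5ac at 4.37 (nearest 4.09) and low for Spdef at 3.29 (nearest 3.96). At 40 µg and 1 month Mlph was high in 1 mouse at 7.28 (nearest 6.95), and Spdef low in another at 3.55 (nearest 4.12). Slc26a4 was high at 7.19 (nearest 5.87) in 1 mouse at 10 µg and at 7.36 (nearest 5.85) in 1 mouse at 80 µg, both at 12 months.

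With crocidolite, Muc5ac was low at 5.26 (nearest 6.70) in replicate 4 at 1 month, whose array was also of low correlation, and Slc26a4 was low at 4.73 (nearest 5.96) in 1 mouse at 6 months. Replicate 7 at 12 months was high for Agr2 at 7.37 (nearest 6.44) and low for Muc5b at 8.62 (nearest 9.18).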

How the results depend on the processing

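Counts below are of the 8 genes called in limma unless said otherwise. Of 2295 checks of 77 called values, 2180 kept direction and call, 1 reversed and the rest lost the call. These checks include the many fits that leave out 1 mouse. Fitting only the groups compared lost 15 of the 77 calls. Arrays without the word lost 15 and reversed 1 of the 77, and arrays with it lost 10 of the 34 that could be checked. The Muc5b difference between 80 µg MWCNT and crocidolite at 12 months reversed among arrays without the word "replacement", to 0.21 ± 0.29 (SE). The cause was not tested. Quantile normalization, centring on array medians, and trended and robust moderation moved no count by over 1.5 times. The mean of a gene's features moved none either, but could not change the levels of these 8 genes, since each has 1 feature. At a threshold of 0.01 the counts were 1 at 10 µg and 1 month, 2 at 40 µg and 6 months, 2 at 80 µg and 12 months, and 3 slopes at 12 months. Among genes above the median level, which leaves 5 of the 8 in, 5 were called at 80 µg and 6 months and 5 slopes at 6 months. Array weights gave 3 at 40 µg and 12 months, 1 dose step and 2 changes with time. The word as a covariate gave 1 at 10 µg and 1 month. Arrays without the word gave 1 there, 3 at 40 µg and 6 months, 5 at 80 µg and 6 months, 4 at 40 µg and 12 months, 0 between the agents at 12 months and 2 dose steps. Arrays with it gave 0 and 1 at 40 and 80 µg and 12 months and 1 slope at 12 months. Without arrays of low correlation 2 changes with time were called. Without mice high in muscle or squamous markers 1 gene was called at 10 µg and 1 month and 1 dose step. Fitting only the groups compared gave 5 at 10 µg and 1 month, 3 at 40 µg and 6 months, 2 and 1 at 80 µg and 6 and 12 months, and 6 changes with time. For these shifts, too, the cause was not tested beyond the fewer mice or genes in a fit.

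Leaving out each DM, 40 µg, 80 µg or crocidolite mouse in turn (1 and 10 µg mice were kept), counts ranged from 1 to 2 at 10 µg and 1 month, 2 to 5 at 40 µg and 6 months, 1 to 2 at 40 µg and 12 months (2 without replicate 4 of that group) and 1 to 4 at 80 µg and 12 months. No paired analysis was possible because the replicate numbers follow the order of the samples and tie no mice together. The study is limited by mouse-to-mouse spread, by a crocidolite group of 5 at 1 month, and by features whose level lies under the median of all genes.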
